A study of Mus musculus with 24 samples.

Results

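The expression of 8 chemokine receptor genes, Ccr1, Ccr2, Ccr6, Ccr7, Ccr9, Cxcr3, Cxcr4, and Cxcr5, was examined in CD11b+ cells of mice with myocardial infarction (MI). These 8 genes were picked by symbol from the 20655 genes with a symbol on a one-colour Agilent mouse array, and each was read by 1 probe with 1 spot. CD11b is an integrin of myeloid cells, and the cells carrying it came from either the spleen or the bone marrow. Each array held RNA pooled from 5 mice, reported as male, on a Balb/C background, and 10 weeks old. The groups were controls and mice at 1, 2, and 4 weeks after MI, in wild-type (WT) mice, in HDC-KO mice, which lack the histamine-forming enzyme histidine decarboxylase, and in STAT6-KO mice, which lack the transcription factor STAT6. The 24 combinations of 3 genotypes, 2 tissues, and 4 time points had 1 array each, so no condition had a replicate and the spread between mice of a pool could not be measured. The tables of the HDC-KO spleen control and of the STAT6-KO bone marrow at 1 week ended early and held 0 of the member probes. They were not used, which left 22 arrays, 11 per tissue.

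Chemokine receptors are G protein-coupled receptors that steer leukocytes along gradients of secreted chemokines. In myeloid cells, CCR2 and CCR1 are best known for drawing monocytes and neutrophils to inflamed tissue, and CXCR4 holds leukocytes in the bone marrow through its ligand CXCL12. CCR7, CXCR5, CCR6, and CXCR3 are best known from lymphocytes and dendritic cells, in which they guide entry into lymph nodes, B cell follicles, mucosal tissue, and inflamed tissue. CCR9 guides T cells and plasmacytoid dendritic cells to the thymus and the gut.

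RefSeq promoter sequences (GRCm38.p6) were held for 6 of the 8 members. The 250 bases before the gene start are given for Ccr6 (the first of 2 promoters held) and Cxcr3, which were higher in the spleen, and for Cxcr4, which was higher in the bone marrow. Each is written 5′ to 3′ on the strand of the gene, and capitals mark the motifs searched on both strands. Ccr6 lay at chr17:8235793-8236042 (+ strand), Cxcr3 at chrX:101734148-101734397 (- strand), and Cxcr4 at chr1:128592300-128592549 (- strand).
Ccr6: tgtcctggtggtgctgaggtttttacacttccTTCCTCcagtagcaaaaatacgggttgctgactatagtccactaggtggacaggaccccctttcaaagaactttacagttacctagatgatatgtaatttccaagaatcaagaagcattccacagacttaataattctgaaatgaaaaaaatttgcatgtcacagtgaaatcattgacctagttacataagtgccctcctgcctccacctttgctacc
Cxcr3: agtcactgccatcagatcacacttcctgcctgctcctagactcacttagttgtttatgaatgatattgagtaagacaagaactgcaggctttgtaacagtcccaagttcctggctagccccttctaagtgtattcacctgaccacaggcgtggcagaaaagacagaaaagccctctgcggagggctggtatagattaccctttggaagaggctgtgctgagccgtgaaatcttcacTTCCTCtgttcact
Cxcr4: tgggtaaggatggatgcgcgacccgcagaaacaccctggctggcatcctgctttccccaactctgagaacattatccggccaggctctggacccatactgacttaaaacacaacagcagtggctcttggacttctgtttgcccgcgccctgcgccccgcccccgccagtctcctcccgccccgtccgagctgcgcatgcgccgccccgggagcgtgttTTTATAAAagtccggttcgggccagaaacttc
The capitals in the Ccr6 and Cxcr3 sequences are TTCCTC, the reverse complement of GAGGAA, a core of sites bound by the myeloid factor PU.1. It began at positions -218 and -14 from the gene start. Ccr1, higher in the bone marrow, held it at -129, and the second Ccr6 promoter and that of Ccr2, both of genes higher in the spleen, did not hold it. These 2 windows began at 8242276 and 124101933, past the listed gene starts of 8236041 and 124101918. They therefore do not cover the bases before those gene starts. Of 32851 promoter windows of the same length, 23.3% held GAGGAA on either strand. In Cxcr4 the capitals are TATAAA, a core promoter box, at position -30, overlapped by its own reverse complement, and 12.4% of the windows held it.

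Levels are the log2 signal minus the log2 75th percentile of the array, so a level of 0 is a signal equal to that percentile. All 8 probes were well above background on all 22 arrays. The share of spots well above background was 70.4 to 79.8% and was lowest in the WT spleen and bone marrow at 1 week. The knocked-out Hdc read 1.67 to 2.78 where it was deleted (7 arrays) and 4.32 to 5.51 in 8 arrays of WT mice. Stat6 on its brightest probe read 1.76 to 2.44 in the 7 STAT6-KO arrays and 2.38 to 3.70 in WT, so these ranges met. Xist, the RNA of the inactive X chromosome of females, was well above background on both probes in 7 of 7 HDC-KO arrays, although all mice were labelled male. Of these probes, 1 was well above background in 0 of 8 WT and 2 of 7 STAT6-KO arrays, and the other in 5 of 8 and 6 of 7, at levels of -7.31 to -5.42 in WT, -6.07 to -3.51 in STAT6-KO, and -3.31 to -2.05 in HDC-KO mice. A slide carried all 4 times of a single genotype in a single tissue, so within a tissue genotype and slide cannot be told apart, nor can time point and array position. No slide held both tissues, so differences between tissues cannot be told apart from differences between their slides either.

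The first comparison asked how the receptors differed between CD11b+ cells of the spleen and those of the bone marrow. Of the 8 receptors, 5 were higher in the spleen, 2 were lower, and 1 did not pass the test. The test was limma over 10 pairs of arrays of the same genotype and time point, with Benjamini-Hochberg adjustment over 27659 genes and a threshold of 0.05. In this comparison 54.5% of all genes passed, 22.4% higher and 32.1% lower, and the 7 of 8 receptors called are to be read against that share. The median difference of the receptors was 1.36 on the log2 scale, against -0.17 over all genes tested.

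Ccr6, the receptor for CCL20, showed the widest gap. Its level ranged from 1.42 to 2.91 in the 11 spleen arrays (median 2.58) and from -3.91 to -1.98 in the 11 bone marrow arrays (median -2.77). No spleen array came near a bone marrow array. The difference was 5.29 ± 0.49 on the log2 scale (SD over 10 pairs), 39.0-fold (limma adjusted p = 1.3e-09).

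Cxcr5, the receptor for CXCL13, ranged from -0.10 to 2.45 in the spleen (median 1.13) and from -4.48 to -1.80 in the bone marrow (median -2.88). The ranges did not overlap, and the difference was 4.23 ± 0.94 (SD, 10 pairs; limma adjusted p = 2.7e-07), or 18.7-fold. Ccr7, the receptor for CCL19 and CCL21, ranged from 1.50 to 4.75 in the spleen (median 2.96) and from -1.97 to 1.08 in the bone marrow (median -0.57). Again no array of one tissue reached the other, with a difference of 3.71 ± 0.55 (SD, 10 pairs; limma adjusted p = 2.2e-08), or 13.1-fold. Cxcr3, the receptor for CXCL9 and CXCL10, had a smaller gap. It ranged from -0.57 to 1.25 in the spleen and from -2.34 to -0.64 in the bone marrow, a difference of 1.91 ± 0.73 (SD, 10 pairs; limma adjusted p = 1.6e-05). The closest arrays of the tissues were WT spleen at 1 week and the HDC-KO bone marrow control. Over the 10 arrays per tissue of the pairs, 14.4% of all genes had no overlap, and 4 of 8 receptors had none over all 22 arrays.

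The receptors of monocyte recruitment were split. Ccr2, the receptor for CCL2, was higher in the spleen in 10 of 10 pairs, with 2.31 to 3.56 in the spleen (median 3.20) and 1.23 to 2.98 in the bone marrow (median 2.35). The difference was 0.81 ± 0.51 (SD, 10 pairs; limma adjusted p = 0.0010), and the ranges overlapped. Within each genotype alone it was 0.55 in WT, 0.82 in STAT6-KO, and 1.15 in HDC-KO mice, and none of these passed the threshold in limma (adjusted p = 0.059, 0.068, and 0.053). Ccr1, a receptor for CCL3 and CCL5, was lower in the spleen in 9 of 10 pairs, by -0.75 ± 0.42 (SD, 10 pairs; limma adjusted p = 6.4e-04). It ranged from 1.97 to 2.91 in the spleen and from 2.77 to 3.92 in the bone marrow, and the exception was the WT pair at 4 weeks. Alone, it passed in STAT6-KO (limma adjusted p = 0.026) and missed in WT and HDC-KO mice (0.14 and 0.062).

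Cxcr4, the receptor for CXCL12, was lower in the spleen in 10 of 10 pairs. It ranged from 2.19 to 3.71 in the spleen (median 2.53) and from 3.10 to 4.45 in the bone marrow (median 3.85), and the spleen arrays that reached the bone marrow range were those at 4 weeks. The difference was -1.06 ± 0.50 (SD, 10 pairs; limma adjusted p = 1.3e-04), and in STAT6-KO mice alone it was -0.77 and missed the threshold (limma adjusted p = 0.10). Ccr9, the receptor for CCL25, ranged from -3.96 to -2.43 in the spleen and from -4.12 to -3.02 in the bone marrow. It was higher in the spleen in 7 of 10 pairs, with a difference of 0.25 that did not pass (95% interval -0.15 to 0.65, limma adjusted p = 0.27). The exact two-sided sign-flip permutation test over the 10 pairs gave p = 0.00195, the smallest it can give, for Ccr2, Ccr6, Ccr7, Cxcr3, Cxcr4, and Cxcr5, and 0.0039 for Ccr1. Pairs of the same genotype shared a slide in each tissue, which this test does not take into account.

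**Figure D1:**
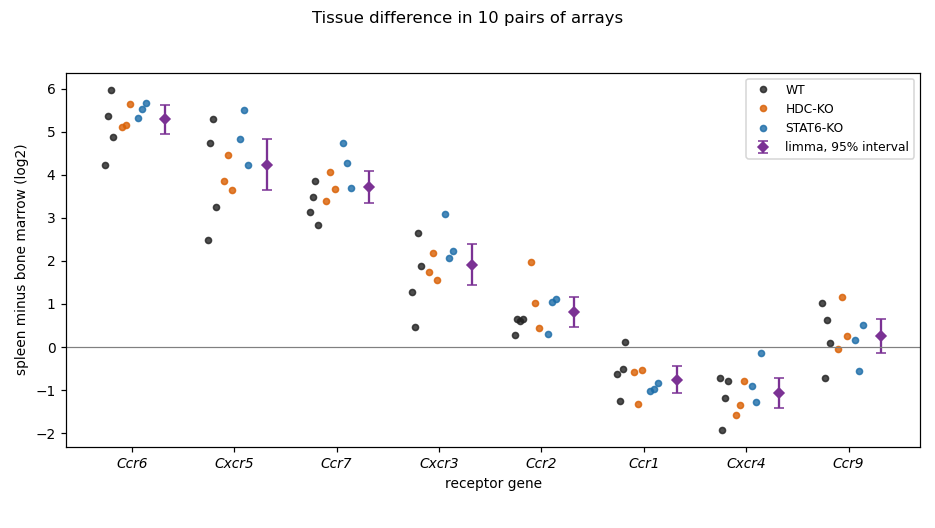
Spleen minus bone marrow difference of each receptor on the log2 scale, with 1 point per pair of arrays of the same genotype and time point and the limma estimate with its 95% interval beside them. Every pair of Ccr6, Cxcr5, Ccr7, Cxcr3, and Ccr2 lies above 0, every pair of Cxcr4 lies below it, and Ccr9 lies on both sides.

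Markers of other cell types moved with these differences. In bulk RNA, fewer cells of a type and less RNA per cell cannot be told apart. Of 8 T cell markers 7 were higher in the spleen and 1, Cd3d, was lower, and their summed linear level (1 being the 75th percentile of an array) was 12.5 to 60.0 in the spleen and 12.7 to 23.4 in the bone marrow. In the bone marrow Cd3d led the T cell sum, at levels of 3.38 to 4.37, while no other T cell marker read above 0.174. Of 8 B cell markers 6 were higher and 0 lower, with summed levels of 19.1 to 75.7 and 1.99 to 36.7. Of 8 dendritic cell markers 6 were higher, and of the 6 monocyte and macrophage markers tested 5 were, with summed levels of 83.1 to 163 against 42.1 to 74.4. All 8 neutrophil markers were lower in the spleen, as were both genes of the CD11b integrin, Itgam at -1.47 and Itgb2 at -1.31. Itgam, which encodes CD11b itself, was well above background in 11 of 11 arrays of each tissue. No B cell marker fell below background in either tissue, and of the T cell markers Trat1 did so in some bone marrow arrays (8 of 11 well above background). The part of these cells in the receptor differences was not tested.

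The related lists shifted in different directions. Of 15 other chemokine receptors, 10 were higher in the spleen and 1 was lower, with a median of 1.01. Cxcr6 was higher by 3.60. Xcr1 was not well above background on any of the 11 bone marrow arrays and was at least 4.15-fold higher in the spleen (limma adjusted p = 2.1e-08), a bound set by the lowest signal well above background on each bone marrow array. Ackr3 and Ccr4 had fitted differences of 3.49 and 2.37, but were well above background on only 6 and 5 of 11 bone marrow arrays. Of 15 ligands of the members that were tested, 5 were higher and 7 lower, with a median of -0.11. Cxcl12, the ligand of CXCR4, stood at -5.58, its level ranging from -5.56 to -3.00 in the spleen and from -1.02 to 2.43 in the bone marrow. Ccl5, a ligand of CCR1, was higher by 3.78, and the ligands of CXCR5 and CXCR3, Cxcl13 and Cxcl9, by 2.13 and 2.07. Of 18 genes of receptor signalling, 2 were higher and 12 lower, with a median of -0.59, led by Rgs1 (3.16) and Rgs18 (-2.15), which encode regulators of G protein signalling, by the arrestin gene Arrb2 (-1.74), and by Pik3cg (-1.35), which encodes a PI3 kinase subunit.

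**Figure D2:**
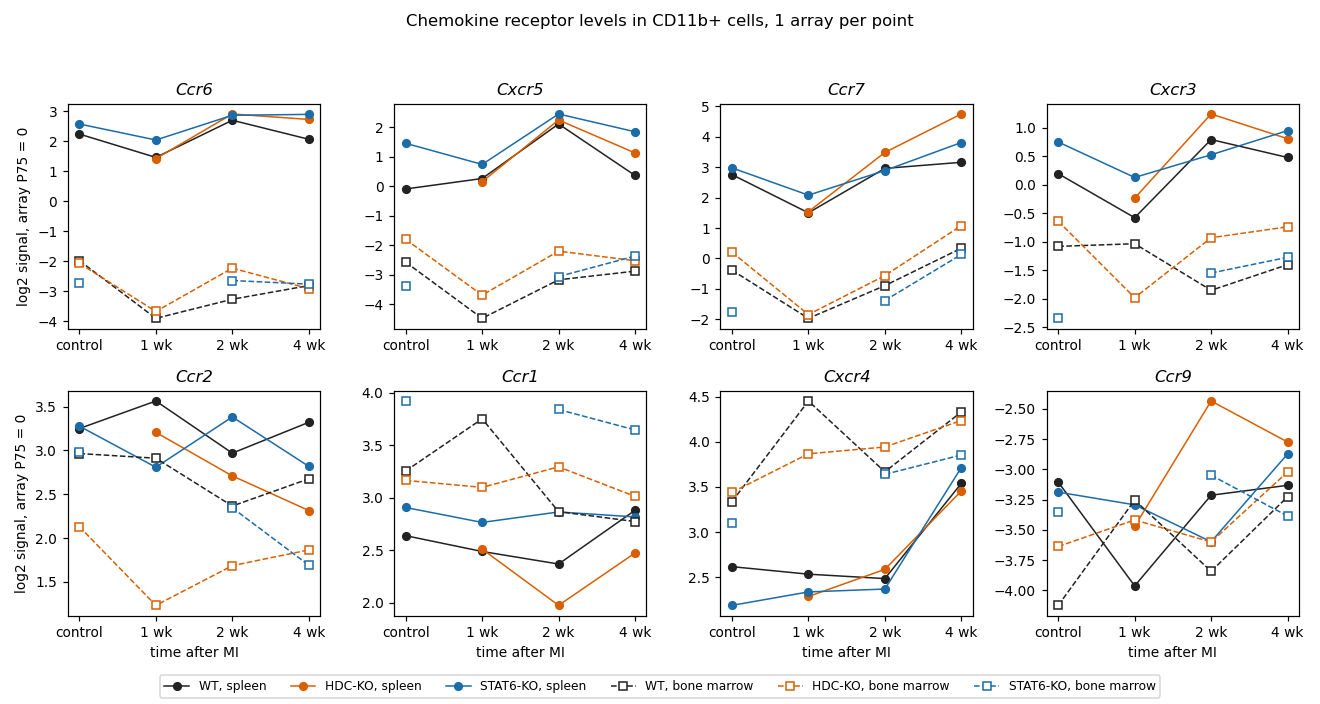
Level of each receptor by time after MI, with 1 array per point, colours for genotypes, filled circles for the spleen, and open squares for the bone marrow. The y axes differ between panels and show the log2 signal relative to the 75th percentile of the array, and the arrays not used leave gaps. Ccr6, Ccr7, and Cxcr3 in the spleen lie lowest at 1 week and Cxcr4 in the spleen lies highest at 4 weeks.

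The second comparison asked how the receptors differed at 1, 2, and 4 weeks after MI from the control. It used limma with genotype and time point as additive terms over the 11 arrays of a tissue. The control level of HDC-KO spleen and the 1-week level of STAT6-KO bone marrow did not enter, so the controls of the spleen and the 1-week arrays of the bone marrow were 2 each. Over the 6 contrasts, 1 receptor value passed the threshold, that of Cxcr5 in the spleen at 2 weeks.

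At 1 week in the spleen, Ccr7 read 1.50 in WT, 1.54 in HDC-KO, and 2.08 in STAT6-KO mice, while its other 8 spleen arrays read 2.76 to 4.75. Ccr6 read 1.46, 1.42, and 2.04 in the same order, against 2.07 to 2.91 at the other times. Cxcr3 read -0.57, -0.23, and 0.13, against 0.20 to 1.25. For all 3 genes the 1-week arrays were therefore the lowest. The share of all genes with a time point apart in this way was not counted, here or in the other time contrasts. The fit gave -1.34 for Ccr7, -0.77 for Ccr6, and -0.77 for Cxcr3 (limma adjusted p = 0.058, 0.071, and 0.10). These missed the threshold, in a contrast in which 7.90% of all genes passed and in which the median of all genes was -0.16. With probes required to be well above background on every array, Ccr7 passed (limma adjusted p = 0.045). Of the 8 T cell markers, 7 fell in this contrast (6.27% of all genes did), among them Cd3g (-2.07) and Cd3e (-1.98), and their summed level was 12.5 to 13.9 at 1 week and 21.0 to 32.6 in the controls. The summed B cell level was 19.1 to 29.6 at 1 week and 22.9 to 43.4 in the controls, and 1 of 8 B cell markers fell. Zbtb46 of the dendritic cell list (-2.22), Eomes of the NK cell list (-1.69), and Prdm1 of the plasma cell list (-0.74) fell as well. The part of these cell types in the receptor values was not tested.

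In the bone marrow at 1 week, Cxcr5 read -4.48 in WT and -3.70 in HDC-KO mice, with -3.38 to -1.80 in the other 9 arrays. Ccr6 read -3.91 and -3.68, against -3.27 to -1.98, and Ccr7 read -1.97 and -1.85, against -1.75 to 1.08. These 3 receptors were again lowest at 1 week. The fit gave -1.64 for Cxcr5, -1.58 for Ccr6, and -1.59 for Ccr7 (limma adjusted p = 0.10, 0.097, and 0.089), in a contrast in which 0.148% of all genes passed. Without the STAT6-KO arrays, which had no 1-week array in the fit, Ccr7 and Cxcr5 passed (limma adjusted p = 0.037 and 0.036). The summed B cell level at 1 week was 1.99 in WT and 6.60 in HDC-KO mice, against 18.9 and 36.7 in their own controls. The STAT6-KO control, with no 1-week array in the fit, read 5.95. Pax5, a B cell factor, fell by 1.91. The summed T cell level was 13.6 to 18.9 at 1 week and 12.7 to 16.0 in the controls. Cd3d led this sum, at levels of 3.38 to 4.37 over the 11 bone marrow arrays. No other T cell marker read above 0.174 there, so the sum says little of the others. The part of B cells in these receptor values was not tested.

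At 2 weeks in the spleen, Cxcr5 read 2.11 in WT, 2.24 in HDC-KO, and 2.45 in STAT6-KO mice, above each of its other 8 spleen arrays (-0.10 to 1.84). Against the controls it was higher by 1.63 ± 0.31 (SE, limma adjusted p = 0.044), or 3.09-fold, in a contrast in which 2.25% of all genes passed, 0.200% upwards. Against its own control, Cxcr5 was higher by 2.20 in WT and 0.99 in STAT6-KO mice. The call was lost with normexp background correction (limma adjusted p = 0.78), with quantile normalization (0.058), without the filter on dim probes (0.059), and without WT, HDC-KO, or STAT6-KO arrays (0.37, 0.12, and 0.061). The Student's test named in the methods did not call it either (unadjusted p = 0.075). Cxcl13, the ligand of CXCR5, was lower by -1.70 (limma adjusted p = 0.036). The summed B cell level was 61.8 to 67.6 at 2 weeks and 22.9 to 43.4 in the controls. It was 19.1 to 29.6 at 1 week and 32.2 to 75.7 at 4 weeks, when Cxcr5 read 0.15 to 0.74 and 0.36 to 1.84. Whether B cells had a part in the Cxcr5 value was not tested.

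Cxcr4 stood apart at 4 weeks in the spleen. It read 3.54 in WT, 3.46 in HDC-KO, and 3.71 in STAT6-KO mice, and 2.19 to 2.62 in the other 8 spleen arrays, with no overlap. The fit gave 1.18 ± 0.19 (SE, unadjusted p = 2.6e-04, limma adjusted p = 0.30), and 0 of 26472 genes passed in this contrast (2303 had an unadjusted p under 0.05). In the bone marrow, Cxcr4 read 3.34, 3.44, and 3.10 in the WT, HDC-KO, and STAT6-KO controls, below all 8 arrays after MI (3.64 to 4.45). The fitted differences from control were 0.77 at 1 week, 0.46 at 2 weeks, and 0.85 at 4 weeks (limma adjusted p = 0.14, 0.66, and 0.091). None passed, nor did any of 27090 genes at 2 or 4 weeks in the bone marrow (2025 and 5187 at an unadjusted p under 0.05).

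Ccr7 at 4 weeks was higher than the controls by 0.87 in the spleen and 1.16 in the bone marrow without passing (limma adjusted p = 0.56 and 0.095). Ccr1, Ccr2, and Ccr9 had an unadjusted p above 0.05 in all 6 contrasts. The fitted difference from control was -0.30 to 0.23 for Ccr1, -0.61 to 0.06 for Ccr2, and -0.58 to 0.49 for Ccr9. The 95% intervals, such as -0.63 to 0.75 for Ccr2 at 1 week in the spleen, were too wide to show that these levels were alike. Among the related lists, Elmo1, which encodes an adaptor of chemokine-driven Rac activation, fell by 1.099 in the spleen at 1 week, and 0 of the other chemokine receptors passed in the 6 contrasts.

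**Figure D3:**
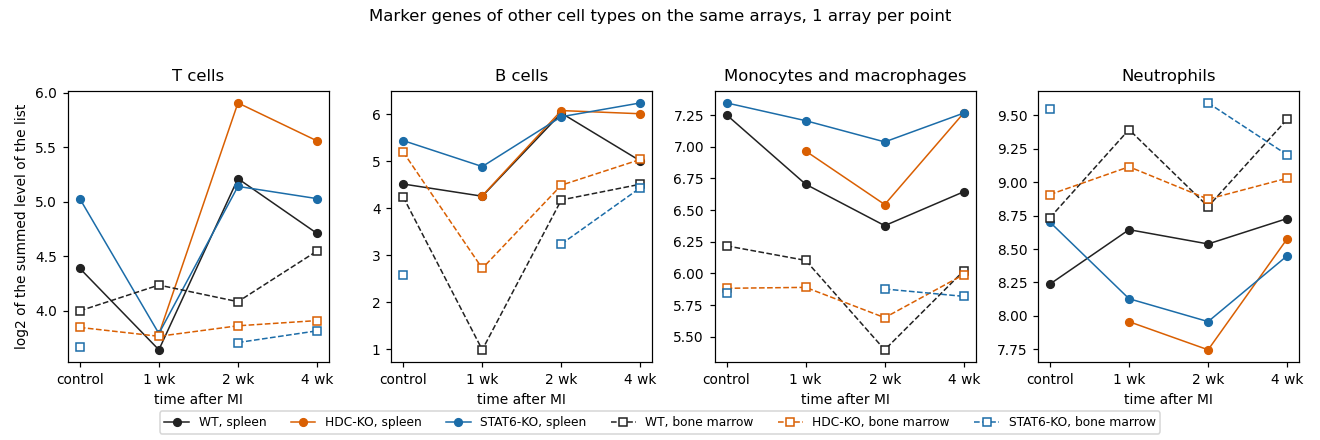
Log2 of the summed linear level of 4 marker lists by time after MI, with 1 array per point, colours for genotypes, filled circles for the spleen, and open squares for the bone marrow. The T cell list in the spleen is at its lowest at 1 week (12.5 to 13.9 before log2) and the B cell list in the WT bone marrow at 1 week (1.99) is the lowest of its panel.

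The third comparison asked whether the receptors differed between HDC-KO or STAT6-KO and WT mice. By the same fits, 0 of 8 receptors passed in any of the 4 comparisons. Over all genes 1.95% passed for STAT6-KO and 2.80% for HDC-KO mice in the spleen, and 4.61% and 0.443% in the bone marrow. The numbers of receptors with an unadjusted p under 0.05 were 2, 1, 2, and 2 in the same order. Over all genes, 6068 and 5987 of 26472 had such a p in the spleen, and 6077 and 5751 of 27090 in the bone marrow. The receptor counts are to be read against these. The HDC-KO and STAT6-KO comparisons share the WT arrays. Because Xist read higher in the HDC-KO than in the WT arrays, a difference in sex cannot be told apart from the HDC-KO genotype.

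In the HDC-KO bone marrow, Ccr2 read 2.13 in the control and 1.23, 1.69, and 1.87 at 1, 2, and 4 weeks, while WT read 2.96, 2.91, 2.37, and 2.68. All 4 HDC-KO arrays were below all 4 WT arrays, as was the case in 1 direction or the other for 8.04% of all genes. The fitted difference was -1.0003 ± 0.24 (SE, 95% interval -1.57 to -0.43, limma adjusted p = 0.13). In the spleen the HDC-KO arrays were lower than WT in 3 of 3 pairs, with a fitted difference of -0.50 (95% interval -1.08 to 0.08). The exact sign-flip permutation test cannot reach 0.05 with 4 pairs (its smallest p is 1 in 8) or with 3 (1 in 4). Of the 6 monocyte and macrophage markers tested, 0 passed in the HDC-KO bone marrow, with a median difference of 0.0015. The summed level of the 8 dendritic cell markers was 38.92 to 42.95 in the HDC-KO and 51.47 to 80.8 in the WT bone marrow. This sum was led by Siglech (levels of 5.06 to 6.24 over the 11 bone marrow arrays). The part of these cells in the Ccr2 value was not tested.

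In the STAT6-KO spleen, Cxcr5 read 1.45, 0.74, 2.45, and 1.84 from the control to 4 weeks, and WT read -0.10, 0.26, 2.11, and 0.36. STAT6-KO was higher in 4 of 4 pairs by 0.34 to 1.55, although the ranges overlapped, and the fitted difference of 0.96 did not pass (95% interval 0.43 to 1.50, limma adjusted p = 0.072). Ccr6 was higher in 4 of 4 pairs as well, by 0.48 (limma adjusted p = 0.14). Lymphocyte markers lay higher in the same comparison, with a median of 0.52 for the 8 B cell markers, of which 0 passed, and of 0.63 for the 8 T cell markers, of which 1 passed, Lat (0.86), which encodes an adaptor of T cell receptor signalling. The median of all genes was -0.06, and the part of lymphocytes in the Cxcr5 and Ccr6 values was not tested. In the STAT6-KO bone marrow, Ccr1 read 3.92, 3.84, and 3.65 at control, 2 weeks, and 4 weeks, and WT read 3.25, 2.87, and 2.77 at these times and 3.75 at 1 week. The fitted difference was 0.73 (limma adjusted p = 0.094), and it passed without the 1-week arrays (0.84, limma adjusted p = 0.038), at which only WT and HDC-KO were measured. Ccr7 was lower there in 3 of 3 pairs, by -0.74 (limma adjusted p = 0.15).

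In the HDC-KO spleen, Ccr7 was higher than WT by 0.70 (limma adjusted p = 0.21), with single pairs from 0.04 to 1.59. Of the 8 T cell markers, 4 passed as higher in that comparison, as did 544 of all 26472 genes tested. In the HDC-KO bone marrow, Cxcr5 was higher in 4 of 4 pairs, by 0.72 (limma adjusted p = 0.20), and the median of the 8 B cell markers, of which 0 passed, was 0.73. The part of these cells was not tested. The other fitted genotype differences lay between -0.50 and 0.51, all with intervals that held 0.

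**Figure D4:**
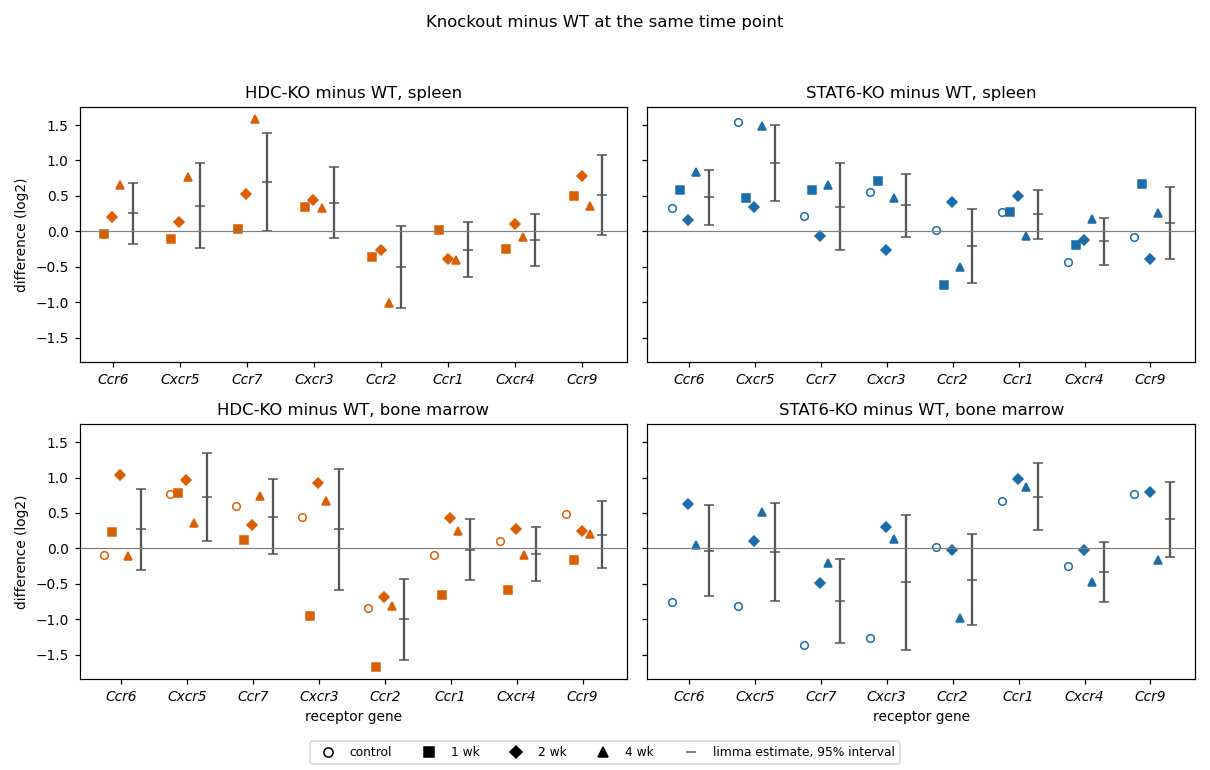
Knockout minus WT difference on the log2 scale for each receptor, with 1 point per time point and the limma estimate with its 95% interval. Ccr2 in HDC-KO bone marrow has all 4 points below 0 and Cxcr5 in STAT6-KO spleen has all 4 above it, and none of the estimates passed after adjustment.

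The knockout effects were compared between tissues by an interaction term over the 10 pairs. Of the 8 receptors, 0 passed for STAT6-KO, where 0.347% of all genes did, and 0 for HDC-KO, where 0.991% did. The lowest unadjusted p was that of Ccr7 for STAT6-KO, whose effect was higher in the spleen than in the bone marrow by 0.90 (95% interval 0.15 to 1.66, limma adjusted p = 0.27). Among the other chemokine receptors, Ccr4 was higher by 1.92 in the HDC-KO spleen. Cxcl9, a ligand of CXCR3, was lower by -2.01 in the HDC-KO spleen and by -2.60 in the STAT6-KO bone marrow, where Ccl19, a ligand of CCR7, was higher by 1.37. Plcb2, which encodes a phospholipase downstream of the receptors, was lower by -0.82 in the STAT6-KO spleen.

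The genes whose levels followed each receptor most closely were taken by Pearson's r over the 22 arrays, among 16649 genes. All points share their arrays and the tissue difference, so r within the 11 arrays of each tissue is given beside it as a description. Ccr7 was followed by Cd2 (r = 0.98, with 0.92 in the spleen and 0.92 in the bone marrow), a surface protein of T and NK cells, and by P2ry10 and Cd83. Cxcr5 was followed by Gimap3 (0.99, 0.92, and 0.92), Btla, which encodes a lymphocyte inhibitory receptor, and Gimap6. Ccr6 was followed by St8sia6 (0.99, 0.62, and 0.86), Trit1, and Rasgrp3, and Cxcr3 by Patj (0.96, 0.87, and 0.83), Bcl11b, which encodes a T cell transcription factor, and Rapgef4. Ccr2 was followed by Msr1 (0.93, 0.87, and 0.90), the macrophage scavenger receptor gene, by Cysltr1, and by Olfm1. Cxcr4 was followed by Rhob (0.93, 0.85, and 0.93), Map1lc3a, and Xylt1. For Ccr1 the closest were Krtap5-1 (0.92, 0.56, and 0.93), Gm5860, and Rnf167, and for Ccr9 they were Fgf13 (0.86, 0.78, and 0.96), Wscd2, and Nt5c3b.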

How the data were processed

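RNA of CD11b+ cells was labelled with Cy3 and hybridised to 24 one-colour arrays. The deposited files hold the spot intensity on a linear scale as read by Agilent Feature Extraction 11.0.1.1, with background subtracted and no scaling between arrays. The submitters' processing notes list GCRMA and the methods name Genespring, whose outputs were not used here. Each intensity was converted to log2 and scaled by subtracting the 75th percentile of its array. Spots flagged as outliers (3055) were left out, the brightest probe of a gene was used, and a probe entered a fit only if at least 2 arrays had it well above background. Probes were named through RefSeq accessions, which gave 27228 of 39429 probes a symbol. Tests used limma 3.58.1 under R 4.3.3 (Benjamini-Hochberg adjusted p under 0.05 over all genes), with the pair of arrays as a block between tissues and additive genotype and time terms within a tissue. With 1 array per condition, the error is the variation of an effect between time points or genotypes, and the number of arrays limits the precision. The fits were tested on simulated data.

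The members, gene lists, and tests were chosen with earlier results of these data known. Named genes were the 8 members, the genes past the threshold in lists of other chemokine receptors, ligands, and receptor signalling (at most 4 per list and comparison, by size), and the 3 genes most like each member. Marker lists covered T, B, NK, plasma, dendritic, and erythroid cells, neutrophils, monocytes and macrophages, and CD11b. NK, plasma cell, and erythroid markers were higher in the spleen for 4 of 6, 3 of 5, and 3 of 6 genes and lower for 0. Alternatives were normexp correction (offset 50, on the median spot signal), quantile or median scaling, a floor, other filters and probe rules, no pair block, slide as a random block, fewer groups, leaving out each pair, time point, or genotype, and the methods' test (Student's, fold change over 2). Promoters were cut to 250 bases, and figures were drawn with matplotlib in Python. Values of some genes on these lists are not reported here.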

Additional observations from a re-analysis of the deposited data

Results flagged for a closer look

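Ccr9 moved in opposite directions in the tissues at 1 and 2 weeks after MI, but not at 4 weeks, in the single ratios of 1 array to its own control. At 1 week it was lower in the spleen in both genotypes with a control (-0.86 in WT and -0.11 in STAT6-KO, mean -0.48). In the bone marrow it was higher in both (0.87 in WT and 0.22 in HDC-KO, mean 0.54). At 2 weeks it was lower in the spleen in the same 2 genotypes (-0.11 in WT and -0.41 in STAT6-KO, mean -0.26). In the bone marrow it was higher in all 3 (0.28 in WT, 0.04 in HDC-KO, and 0.31 in STAT6-KO, mean 0.21). At 4 weeks it was -0.03 in WT and 0.32 in STAT6-KO spleens and, in the bone marrow, 0.90 in WT, 0.62 in HDC-KO, and -0.03 in STAT6-KO mice. The WT bone marrow ratios rest on a control array that held the lowest Ccr9 level of all arrays used, -4.12. This difference between tissues was not tested, and the share of all genes with such a pattern was not counted.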

How the results depend on the processing

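Of the 8 receptors, the 7 called between tissues were called in all alternatives over the 3 genotypes, slide as a random block and each pair left out included, and 5 by the methods' test and within each genotype alone, of which Ccr6, Ccr7, Cxcr3, and Cxcr5 were called in each of these and the other was Cxcr4, or Ccr1 in STAT6-KO mice alone. In the spleen after MI, where 1 receptor value passed, 0 passed with normexp correction, quantile normalization, or no filter on dim probes, 0 passed whichever genotype was left out, 2 passed when every array had to be well above background, and 2 by the methods' test (0 after Benjamini-Hochberg). In the bone marrow after MI, 0 to 2 passed without 1 genotype and 1 by the methods' test. The values called by the methods' test in the spleen after MI were Ccr7 at 1 week and Cxcr4 at 4 weeks, not Cxcr5 at 2 weeks. In the bone marrow, STAT6-KO against WT gave 0 to 1 without 1 time point, and HDC-KO against WT gave 1 by the methods' test. Of the single receptor differences with an unadjusted p under 0.05 and those between tissues, 0 turned direction in any alternative. Over all alternatives of limma, the genes called ranged from 7505 to 18400 (reported value 15064) between tissues. For STAT6-KO they ranged from 4 to 964 (reported value 517) in the spleen and 0 to 1502 (reported value 1248) in the bone marrow, and for HDC-KO from 0 to 2604 (reported value 742) and 3 to 393 (reported value 120). After MI they ranged from 0 to 3345 (reported value 2092), 0 to 1011 (reported value 595), and 0 to 6 (reported value 0) at 1, 2, and 4 weeks in the spleen and from 0 to 457 (reported value 40), 0 to 0 (reported value 0), and 0 to 543 (reported value 0) in the bone marrow. The interaction gave 0 to 484 (reported value 96) for STAT6-KO and 0 to 518 (reported value 274) for HDC-KO. With normexp correction the counts fell from 742 to 6 (HDC-KO spleen), from 517 to 4 (STAT6-KO spleen), and from 2092 to 0 (spleen at 1 week). The cause was not tested. The labels carry no replicate numbers, so arrays were paired only by genotype and time point. The median of all genes at 1 week in the spleen was -0.16, and 0.13 with median scaling and 0.30 with normexp.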
